A study of Mus musculus with 6 samples.

Results

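The genes described here are 36 genes of MHC class I antigen presentation and of the interferon response, of 18193 genes measured on the arrays. They were set out by name in 3 groups: 12 of class I presentation, 16 interferon-induced genes, and 8 regulators and receptors of interferon signalling. A gene was read through the probe sets (the array's features for a transcript) whose annotation names that gene alone, and among these through the one with the highest mean over the 6 arrays. By this rule 34 of the 36 had a value, 11, 15 and 8 in the 3 groups. Psme2 and Isg15 had none, since the single probe set of each is annotated to a second gene as well.

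The values come from Affymetrix Mouse 430 2.0 arrays of cells sorted by flow cytometry from collagenase-digested fore and hind limb skeletons of mice at postnatal day 3, each sample being a pooled litter. The titles give the first population as CD45-negative, Ter119-negative, Itgav-negative and Tie2-negative (called Tie2-negative here), and the second as CD45-negative, Ter119-negative, Itgav-low and Tie2-positive (called Tie2-positive here), reading the dashes as minus signs. Each population had 3 arrays. By genotype the mice are labelled wild type, although a protocol speaks of GFP-labelled mice; no treatment was given, and both populations share all of this. Whether the 3 arrays of each population stand for separate litters is not said, and p-values therefore cover only the scatter among these samples, possibly a technical one. Every value is on the log2 scale after quantile normalization, and every change is Tie2-positive minus Tie2-negative.

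Class I molecules are carried by almost every nucleated cell and show peptides from inside the cell to CD8 T cells. The heavy chains pair with beta-2-microglobulin and take up peptides that the proteasome has cut and the TAP transporter has moved into the endoplasmic reticulum. Type I interferons act through the Ifnar1 and Ifnar2 receptor chains and through Stat2 and Irf9 on interferon-stimulated response elements, while interferon gamma acts through Ifngr1, Ifngr2 and gamma-activated sites. Endothelial cells are known to carry class I molecules and to respond to both kinds of interferon.

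Promoter sequences are shown first, because the members differ in whether letters matching an interferon element were found near their start. RefSeq windows on GRCm38.p6, running from 250 bases before to 50 bases after an annotated gene start, were at hand for 31 of the 36 members. They were searched on both strands for the core of the interferon-stimulated response element, which is GAAA and again GAAA with any 2 bases between them, and for TTCNNNGAA, the gamma-activated site, with overlapping matches counted. The response element core was in a window of 10 of 13 interferon-induced genes, 2 of 10 class I genes and 1 of 8 regulators and receptors, against 3.99% of 27025 genes with a window and 3.44% of 32851 windows. The gamma-activated site was in a window of 4 of 13, 1 of 10 and 3 of 8, against 9.55% of all genes and 8.30% of all windows. A match is a run of letters and not a shown binding site. The stretches below, 5′ to 3′ along the gene, hold the 160 bases before the start of 6 genes and the first 30 bases of Ifitm3. They are those of the 2 genes that rose (Ifitm2 and Ifitm3), of B2m, of Bst2, and of Ifit1, Ifit3 and Rsad2, which were highest in replicate 1 of both populations. Capitals mark the response element core, which reads TTTC, any 2 bases and TTTC where it lies on the other strand.
B2m (chr2:122147527-122147686, plus strand): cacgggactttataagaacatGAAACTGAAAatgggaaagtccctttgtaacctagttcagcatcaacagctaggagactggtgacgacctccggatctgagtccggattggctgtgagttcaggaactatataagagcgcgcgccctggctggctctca
Bst2 (chr8:71537473-71537632, minus strand): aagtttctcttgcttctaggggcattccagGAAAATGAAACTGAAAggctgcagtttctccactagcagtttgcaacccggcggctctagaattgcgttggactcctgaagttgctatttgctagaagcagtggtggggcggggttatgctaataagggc
Ifit1 (chr19:34640729-34640888, plus strand): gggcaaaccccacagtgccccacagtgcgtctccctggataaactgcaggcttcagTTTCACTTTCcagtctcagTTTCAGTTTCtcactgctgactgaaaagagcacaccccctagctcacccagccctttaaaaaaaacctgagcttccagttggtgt
Ifit3 (chr19:34583369-34583528, plus strand): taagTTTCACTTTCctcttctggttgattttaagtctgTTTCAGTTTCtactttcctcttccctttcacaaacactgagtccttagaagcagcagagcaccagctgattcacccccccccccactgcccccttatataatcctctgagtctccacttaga
Rsad2 (chr12:26456453-26456612, minus strand): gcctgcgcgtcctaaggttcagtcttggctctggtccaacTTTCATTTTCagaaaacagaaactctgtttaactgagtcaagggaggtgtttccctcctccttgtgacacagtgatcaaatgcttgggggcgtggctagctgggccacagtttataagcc
Ifitm2 (chr7:140955962-140956121, minus strand): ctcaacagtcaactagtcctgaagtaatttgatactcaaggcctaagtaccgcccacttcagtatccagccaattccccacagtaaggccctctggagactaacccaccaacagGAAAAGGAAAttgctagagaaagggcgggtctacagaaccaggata
Ifitm3 (chr7:141010715-141010744, minus strand): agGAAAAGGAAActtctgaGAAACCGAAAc

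In the Ifit1 stretch the 2 cores had their first bases at -104 and -85 from the start, and in the Ifit3 stretch at -156 and -122. The 2 cores of Bst2 overlapped, with first bases at -130 and -124, and a gamma-activated site began at -136. Ifitm2 had 1 core, from -46 to -37. In Ifitm3 both cores lay after the start, at 3 to 12 and at 20 to 29, with a gamma-activated site at 14 to 22 that overlapped the second core. Neither motif was found in the windows of Oasl2 and Ifitm1, and only the gamma-activated site in a window of Ifit2, which says only that these letters are not in those windows.

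**Figure D1:**
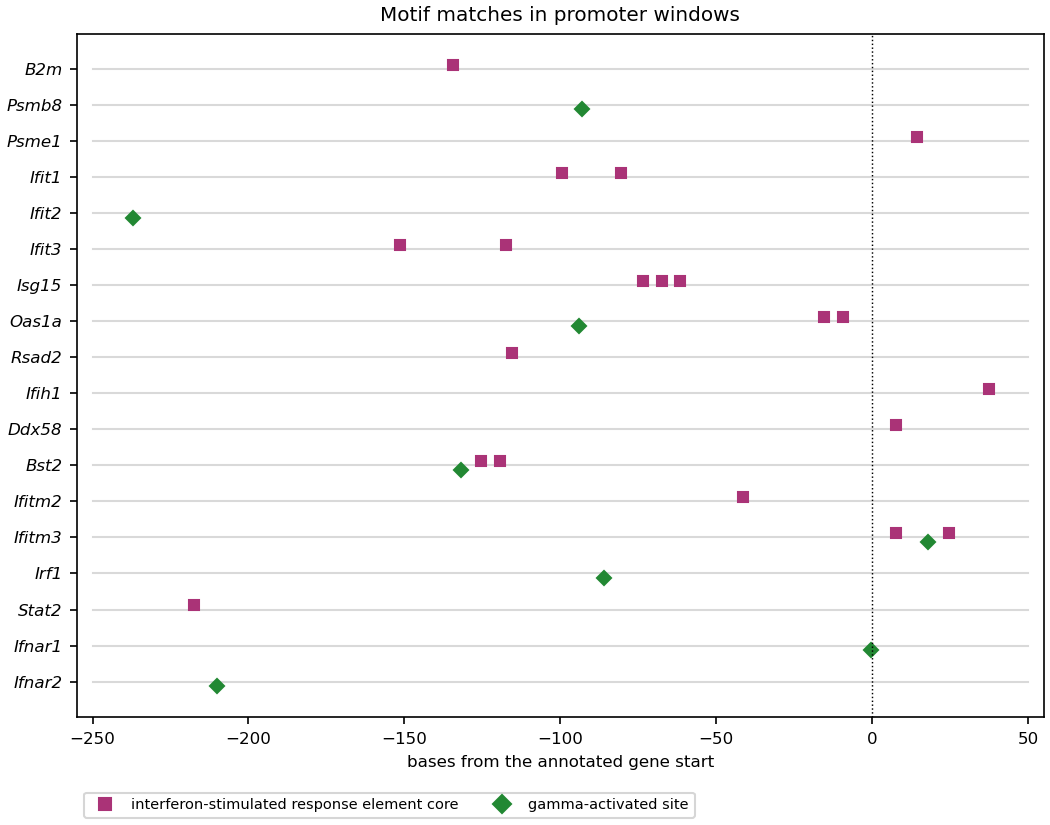
Positions of the interferon-stimulated response element core (squares) and the gamma-activated site (diamonds) in the promoter windows of the 18 members with a match, in bases from the annotated gene start (dotted line), over windows of 300 bases. The squares lie mostly on interferon-induced genes, 10 of whose 13 windowed members hold one.

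Among the 34 measured genes, 2 rose in the Tie2-positive population and 0 fell: Ifitm2 and Ifitm3, which encode membrane proteins that hinder the entry of viruses. This is 5.88% of the members, against 7.39% of all 18193 genes called by limma at an adjusted p under 0.05 (4.86% rose and 2.53% fell). In class I presentation 0 of 11 passed, in the interferon-induced group 2 of 15, and among regulators and receptors 0 of 8. At an unadjusted p under 0.05 limma gave 5, 4 and 0 of them, against 28.6% of all genes. The populations did not overlap in 9 members (8 with the Tie2-positive arrays above, 1 below), which is 26.5% against 39.1% of all genes (15.2% above and 23.9% below). The median change was 0.58 in class I presentation, 0.09 in the interferon-induced genes and 0.31 in the regulators and receptors, beside -0.11 over all genes. The medians moved with single arrays. Without Tie2-negative replicate 1 they were 0.36 in class I presentation and 0.71 in the interferon-induced genes. Without Tie2-negative replicate 2 the interferon-induced median was 0.18, and without Tie2-positive replicate 1, 2 or 3 it was 0.16, 0.16 and 0.18. The regulator and receptor median was 0.078 without Tie2-positive replicate 1.

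Other marker lists describe what the sorted samples held. Of the mesenchymal and skeletal markers, 0 of 5 passed in limma (0 at an unadjusted p under 0.05), with medians from 6.44 to 6.66 in the Tie2-negative and 6.11 to 6.52 in the Tie2-positive arrays. Of early B lineage markers 3 of 5 fell and of T and NK cell markers 1 of 5 fell (4 and 2 at an unadjusted p under 0.05 in limma). Of macrophage markers 1 of 7 rose, Mrc1, and the other 6 overlapped between the populations. Of megakaryocyte and platelet markers 1 of 5 rose, Pf4, with 3 at an unadjusted p under 0.05 in limma.

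**Figure D2:**
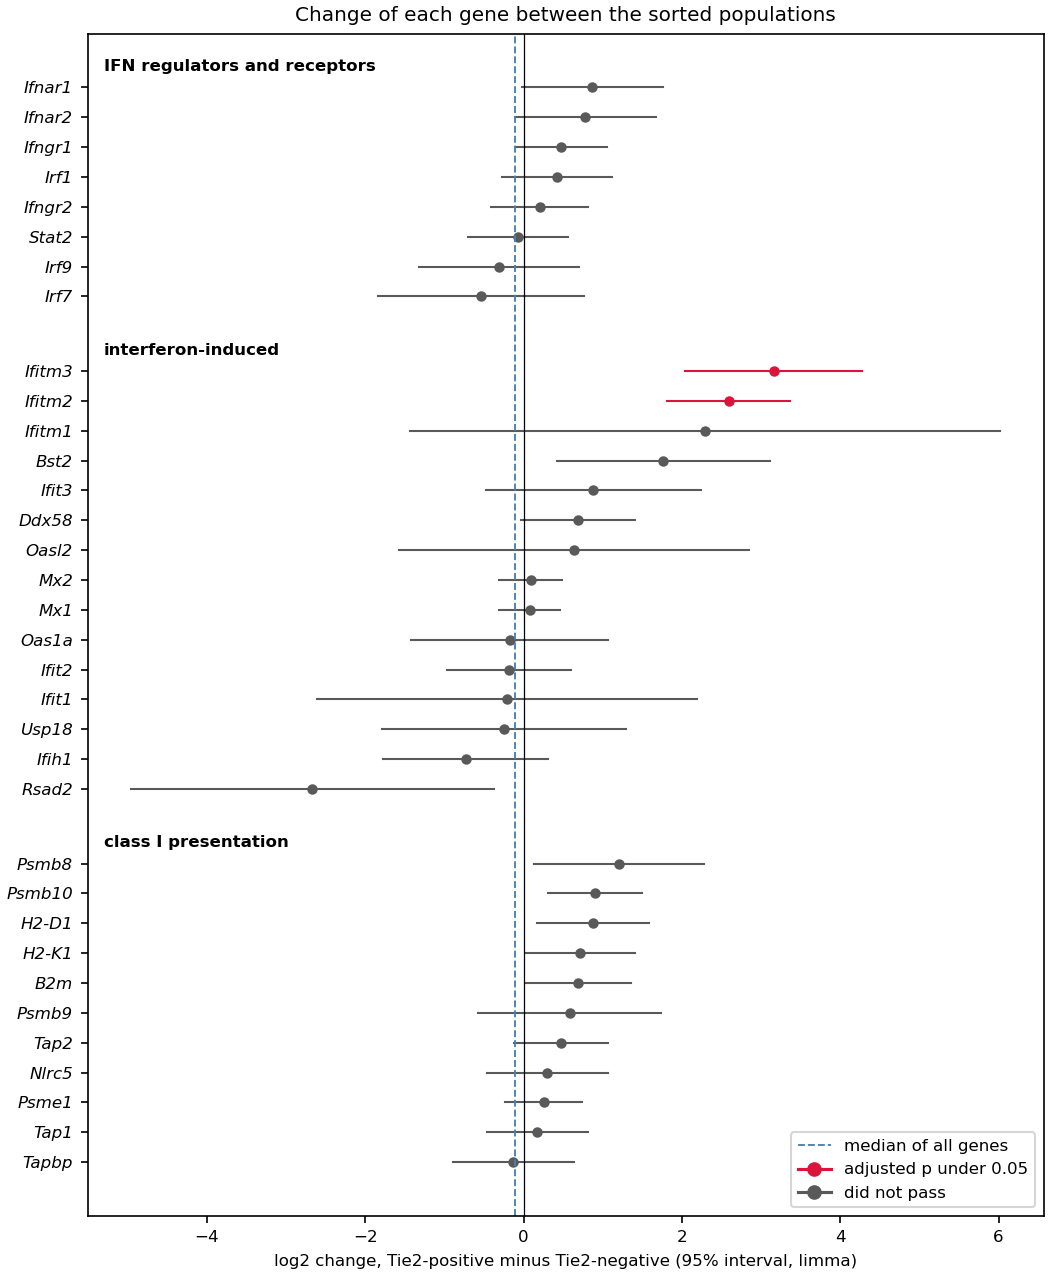
Change of each of the 34 genes on the log2 scale (horizontal axis), with 95% intervals from limma, in 3 groups, beside the median of all genes at -0.11 (dashed line). Ifitm3 (3.16) and Ifitm2 (2.59), in red, passed, the class I genes other than Tapbp lie right of 0, and Rsad2 lies farthest to the left at -2.67.

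The class I light chain and both heavy chains had changes above 0, and none of them passed. B2m, the light chain, read 12.25, 11.71 and 11.16 in Tie2-negative replicates 1, 2 and 3 and 12.56, 12.38 and 12.23 in the Tie2-positive ones. The populations overlapped by a narrow margin, and the change of 0.68 ± 0.28 (SE, n = 3 per population; 95% interval 0.013 to 1.35) did not pass (limma adjusted p = 0.169). It was 0.41 without Tie2-negative replicate 3. H2-D1, a class I heavy chain, read 10.75, 11.15 and 10.73 against 12.24, 11.84 and 11.17, so that its lowest Tie2-positive value lay just above its highest Tie2-negative one (0.87 ± 0.30, SE; adjusted p = 0.119). H2-K1, another heavy chain, read 10.44, 11.08 and 10.45 against 11.80, 11.37 and 10.96, with overlap (0.72 ± 0.29, SE; adjusted p = 0.161).

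The heavy chain values depended on the probe set, and the genes are near copies of one another whose transcripts a probe set may not separate. The next brightest probe set of H2-K1 gave 0.17, and its 4 probe sets ran from -0.051 to 0.72. The 9 probe sets of H2-D1 ran from -0.11 to 0.87, and the change over their mean was 0.36. Those next in brightness to the probe set used gave 0.87 and 0.70 (means of 11.26 and 8.95). Dimmer ones gave 0.0025 (mean of 8.03) and -0.11 (mean of 6.69). The rest had means below the median of all gene values of 6.55. The probe sets used for both genes carry the suffix x_at, which marks possible matches to several transcripts. Without such probe sets H2-K1 had no value and the change of H2-D1 was 0.0025. B2m was steadier, with 0.57 and 0.68 in its 2 probe sets.

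The peptide-supply genes did not pass either. Psmb8, Psmb9 and Psmb10 encode the catalytic subunits that turn the standard proteasome into the immunoproteasome. Psmb10 read 8.91, 9.60 and 9.11 in the Tie2-negative and 10.09, 10.30 and 9.94 in the Tie2-positive arrays, without overlap, and its change of 0.91 ± 0.25 (SE; limma adjusted p = 0.0756) was the class I change closest to the threshold. Psmb8 read 8.17, 9.27 and 8.40 against 8.98, 10.31 and 10.18, where Tie2-positive replicate 1 lay inside the Tie2-negative range (1.21 ± 0.45, SE; adjusted p = 0.143). Without that array Psmb8 passed, with a change of 1.63 (adjusted p = 0.0249). That fit called 2148 of all 18193 genes, against 1345 with all 6 arrays. Psmb9 had the same low array, at 7.93 against 9.51 and 9.34 in the other 2 Tie2-positive samples, beside 7.91, 8.95 and 8.18 in the Tie2-negative population (0.58 ± 0.49, SE). Leaving out 1 array in turn gave 0.29 (Tie2-positive replicate 2) to 1.08 (Tie2-positive replicate 1) for Psmb9. The standard subunits they replace gave -0.058 ± 0.26 for Psmb5, 0.18 ± 0.19 for Psmb6 and -0.66 ± 0.21 for Psmb7 (SE), and 0 of 9 standard proteasome and activator genes passed, with 3 at an unadjusted p under 0.05 in limma.

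Tap1 and Tap2 encode the peptide transporter, and Tapbp (tapasin) links it to the heavy chain. Tap2 read 6.80, 7.50 and 7.48 against 7.82, 7.76 and 7.62, a change of 0.47 ± 0.25 (SE) without overlap that did not pass and was 0.24 without Tie2-negative replicate 1. Tap1 (0.17 ± 0.27, SE), Tapbp (-0.13 ± 0.32, SE), the proteasome activator gene Psme1 (0.25 ± 0.20, SE) and Nlrc5, the transactivator of class I genes (0.30 ± 0.32, SE), overlapped between the populations. Tap1 turned to -0.047 over the mean of its 4 probe sets. Array by array, the median of the 11 class I genes was 8.91, 9.60 and 9.11 in the Tie2-negative and 10.09, 10.30 and 9.94 in the Tie2-positive samples. In every array this median was the Psmb10 value, so its gap is that of Psmb10 alone. Of the 11 genes, 8 overlapped between the populations, and the median of their changes was 0.58.

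**Figure D3:**
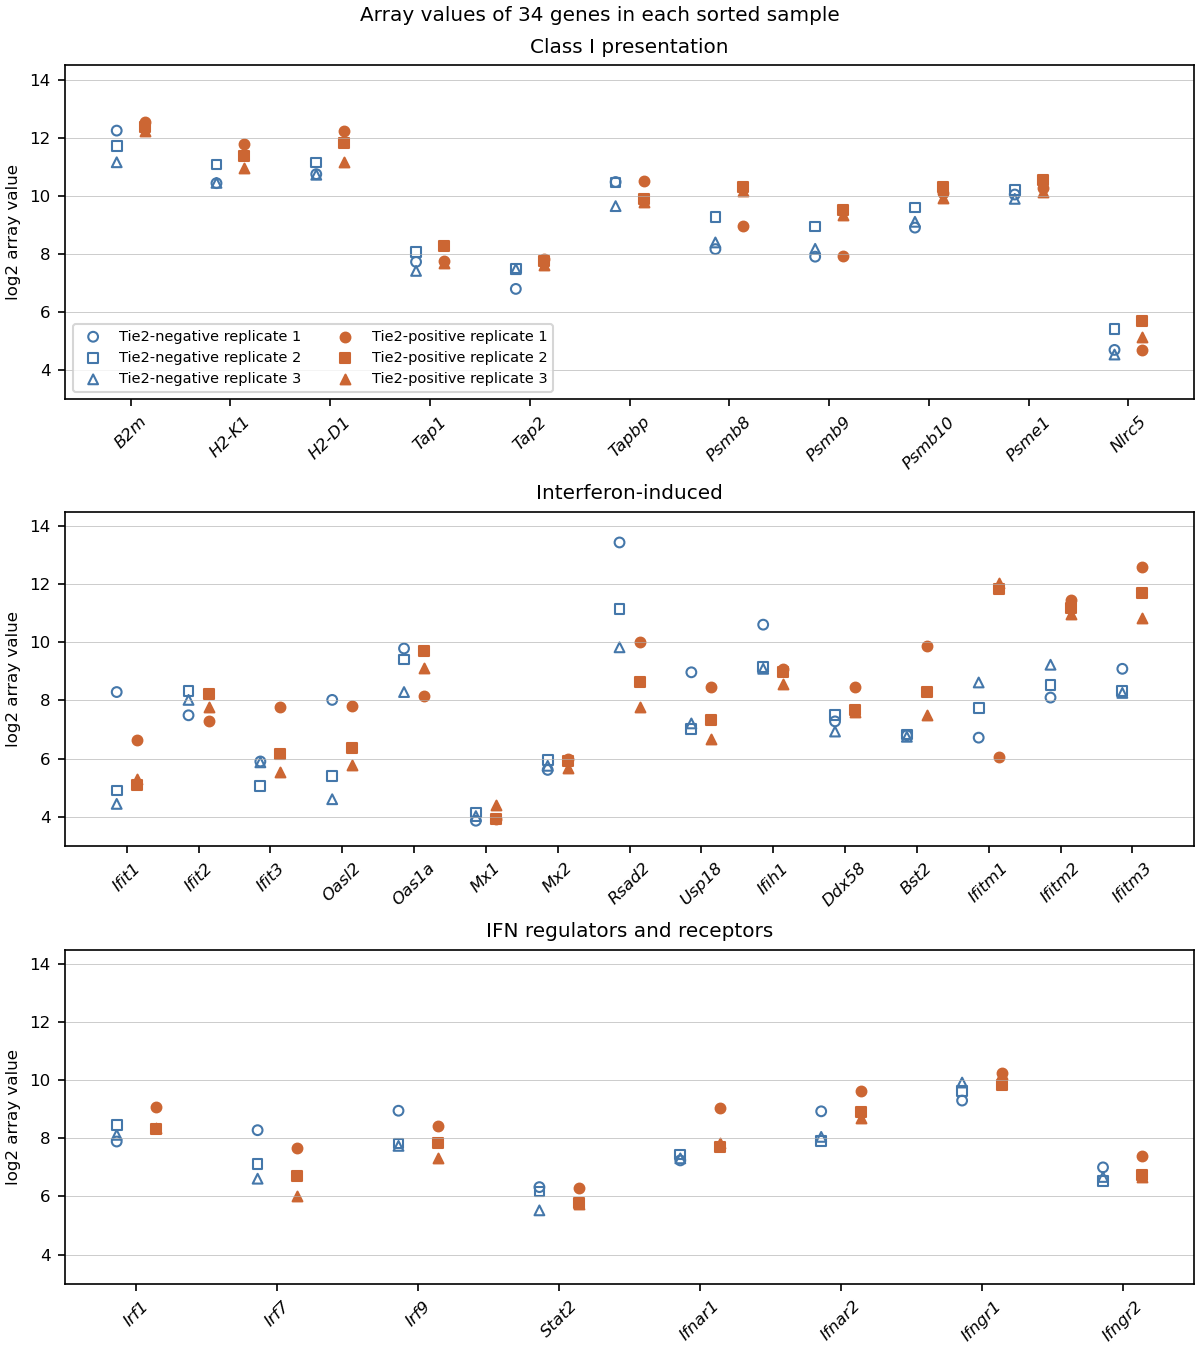
Log2 array values (vertical axis) of the 34 genes in each of the 6 arrays, in 3 panels by group, with open blue symbols for Tie2-negative and filled orange symbols for Tie2-positive samples and 1 symbol shape per replicate number. Ifitm2 and Ifitm3 show clear gaps between the populations, Ifitm1 has 1 Tie2-positive array at 6.07 below all others, and Rsad2 spreads from 7.78 to 13.44.

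Of the interferon-induced genes, the Ifitm family carried the largest positive changes. Ifitm3 read 9.09, 8.33 and 8.26 in the Tie2-negative arrays and 12.60, 11.71 and 10.85 in the Tie2-positive ones. The highest Tie2-negative and the lowest Tie2-positive value lay well apart, and the rise was 3.16 ± 0.47 (SE, n = 3 per population; 8.93-fold; limma adjusted p = 0.0168). Ifitm2 read 8.10, 8.52 and 9.23 against 11.47, 11.17 and 10.97, a rise of 2.59 ± 0.33 (SE; 6.03-fold; limma adjusted p = 0.0125). Leaving out single arrays ended both calls in some cases. Ifitm2 did not pass in limma without Tie2-negative replicate 1 or 2 (changes of 2.33 and 2.54, adjusted p = 0.0633 and 0.0710). Ifitm3 did not pass without Tie2-negative replicate 1, 2 or 3 (changes of 3.42, 3.04 and 3.01, adjusted p = 0.0665, 0.0828 and 0.0616) or without Tie2-positive replicate 2 (3.16, adjusted p = 0.0536). In those fits lacking Tie2-negative replicate 1 or 2, 0 of all 18193 genes were called by limma, with 4012 and 3980 at an unadjusted p under 0.05. Each gene had 1 probe set.

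Ifitm1, the third of these membrane proteins, behaved differently within the Tie2-positive population. It read 6.72, 7.74 and 8.62 in the Tie2-negative samples and 6.07, 11.83 and 12.05 in Tie2-positive replicates 1, 2 and 3. Tie2-positive replicate 1 was thus the lowest of all 6 arrays and the other 2 were the highest, and the change of 2.29 ± 1.57 (SE; 95% interval -1.44 to 6.02) did not pass (limma adjusted p = 0.360). Without Tie2-positive replicate 1, in a fit that called 2148 of all 18193 genes, the change was 4.25 (adjusted p = 0.00325). In a fit lacking both Tie2-positive replicates 2 and 3, added once the data had been seen, it was -1.62 (adjusted p = 0.148).

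The neutrophil and monocyte markers followed the same order of arrays. The median of 7 measured markers of 8, among them S100a8 and Mpo, was 6.35, 8.15 and 9.07 in the Tie2-negative and 6.08, 12.47 and 13.69 in the Tie2-positive samples. None of the 7 passed in limma (0 at an unadjusted p under 0.05). Ptprc, the gene of CD45, which both gates excluded, read 9.52, 10.41 and 9.42 against 4.86, 9.95 and 11.23. Ifitm1, Psmb8 and Psmb9 were all lower in Tie2-positive replicate 1 than in the other 2 Tie2-positive arrays. So were Oas1a, Nlrc5 and Ifit2. Psmb8 and Psmb9 did not keep the order of the marker medians, since both were higher in replicate 2 than in replicate 3 of each population. The part of neutrophils and monocytes in those values was not tested. In bulk samples fewer cells of a type and less RNA per cell cannot be told apart.

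Bst2 (tetherin), which holds budding virus particles at the cell surface, was even in one population and spread in the other. It read 6.80, 6.83 and 6.75 in the Tie2-negative arrays and 9.88, 8.30 and 7.50 in the Tie2-positive ones, without overlap. The change of 1.77 ± 0.56 (SE, n = 3 per population; 3.40-fold) did not pass (limma adjusted p = 0.104). It passed without Tie2-positive replicate 1 (1.11, adjusted p = 0.0426) or Tie2-positive replicate 3 (2.30, adjusted p = 0.0458). Those fits called 2148 and 1085 of all 18193 genes in turn. The endothelial marker list, of which 6 of 6 rose, includes Tek, the gene of Tie2, by which the populations were sorted. The list had medians of 5.04, 5.16 and 5.01 in the Tie2-negative and 12.02, 10.85 and 9.34 in the Tie2-positive arrays. Bst2, Ifitm2 and Ifitm3 shared that order among the Tie2-positive arrays. The order was not particular to them. B2m, H2-K1, H2-D1, Rsad2 and Irf7, among others, also had it, Rsad2 and Irf7 with changes below 0. Tie2-positive replicate 1 was the highest of its population in 24 of the 34 members, against 42.1% of all genes. Whether endothelial content sets the order was not tested. Bst2 also marks plasmacytoid dendritic cells and is 1 of the 5 genes of their list. Their lectin gene Siglech read 6.35, 5.74 and 6.56 against 6.23, 6.25 and 6.50. Of the 4 genes of that list other than Bst2, 0 passed in limma, with 2 at an unadjusted p under 0.05: Tcf4, higher in the Tie2-positive arrays (9.81 to 11.66 against 8.53 to 8.88), and Ccr9, lower there (4.42 to 4.82 against 5.08 to 5.41). The part of these cells in the Bst2 values was not tested. The promoter stretch of Bst2 shown above carries overlapping response element cores, but the arrays hold no measure of its use.

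**Figure D4:**
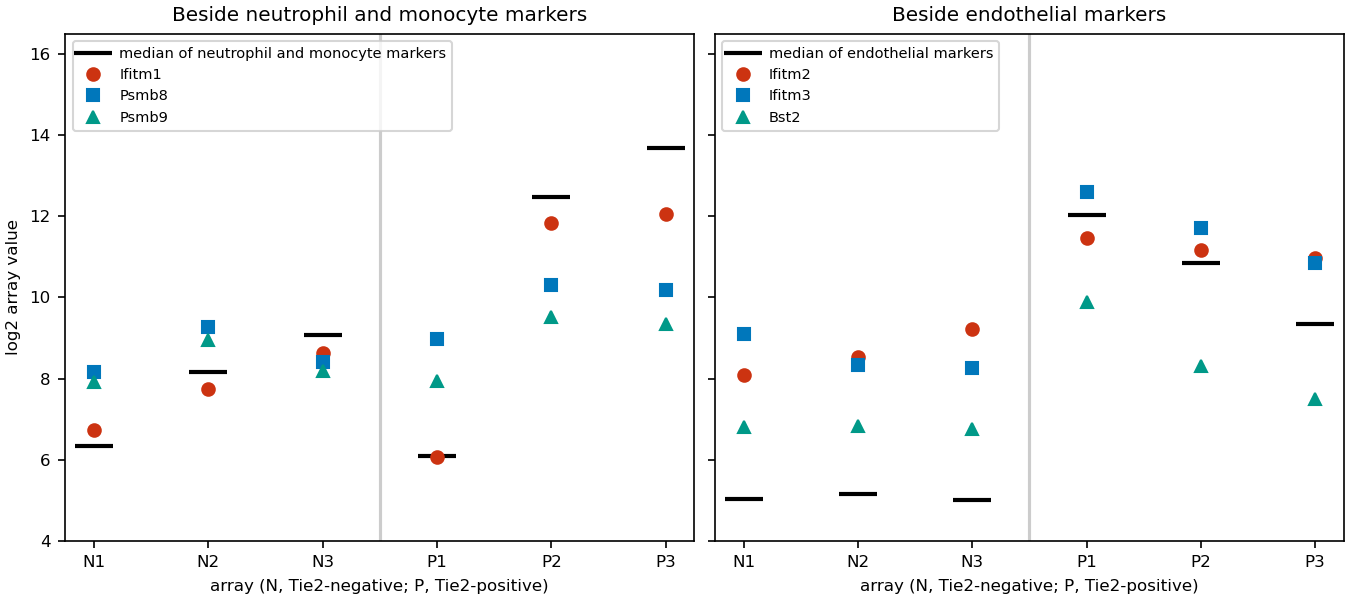
Log2 array values (vertical axis) in Tie2-negative (N) and Tie2-positive (P) arrays 1 to 3, with black bars for the median of a marker list. Left, Ifitm1 (6.07 in P1, 11.83 and 12.05 in P2 and P3), Psmb8 and Psmb9 beside neutrophil and monocyte markers; right, Ifitm2, Ifitm3 and Bst2, each highest in P1, beside endothelial markers.

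Rsad2 (viperin), an antiviral enzyme, had the largest change in the other direction. It read 13.44, 11.14 and 9.83 in the Tie2-negative and 10, 8.63 and 7.78 in the Tie2-positive arrays. The lowest Tie2-negative value lay just under the highest Tie2-positive one, and the change of -2.67 ± 0.96 (SE, n = 3 per population) did not pass (limma adjusted p = 0.133). Its 3 probe sets gave -2.73, -2.67 and -2.14. The change was -1.68 without Tie2-negative replicate 1, and between -3.49 and -2.16 without any other single array. In a fit lacking both arrays numbered 1, added once the data had been seen, it was -2.28 and passed (adjusted p = 0.0460). That fit called 1741 of all 18193 genes, against 1345 with all 6 arrays.

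The RNA sensors diverged in sign, and neither passed. Ifih1 (MDA5) read 10.61, 9.14 and 9.09 against 9.09, 8.98 and 8.57, the Tie2-positive arrays lying below by less than the printed decimals show (-0.73 ± 0.44, SE), and the change was -0.23 without Tie2-negative replicate 1. Ddx58 (RIG-I) read 7.28, 7.50 and 6.93 against 8.48, 7.68 and 7.62, with the Tie2-positive arrays above (0.69 ± 0.30, SE; 0.41 without Tie2-positive replicate 1). Of the 3 probe sets of Ddx58, 1 gave -0.19.

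The remaining interferon-induced genes overlapped between the populations. Ifit1, which binds foreign RNA ends, changed sign with the array left out: its change of -0.21 ± 1.01 (SE) became 0.998 without Tie2-negative replicate 1, where it read 8.29 against 4.90 and 4.44 in replicates 2 and 3. Its Tie2-positive values were 6.64, 5.08 and 5.29. Oasl2, of the oligoadenylate synthetase family, read 8.02, 5.40 and 4.60 against 7.81, 6.35 and 5.77 (0.64 ± 0.93, SE), and leaving out 1 array in turn gave -0.064 (Tie2-negative replicate 3) to 1.64 (Tie2-negative replicate 1). Ifit3, a partner of Ifit1, read 5.90, 5.05 and 5.87 against 7.78, 6.16 and 5.53 (0.88 ± 0.57, SE), with a change of 0.24 without Tie2-positive replicate 1 and 1.36 without Tie2-positive replicate 3. Usp18, which removes Isg15 from proteins and dampens the receptor, read 8.97, 7.02 and 7.21 against 8.46, 7.34 and 6.66 (-0.25 ± 0.65, SE), with a change of 0.37 without Tie2-negative replicate 1 and -0.73 without Tie2-positive replicate 1. In each of these genes the array titled replicate 1 was the highest of its population. Oas1a, which makes the activator of RNase L, read 9.79, 9.41 and 8.29 against 8.14, 9.70 and 9.12 (-0.18 ± 0.52, SE). Ifit2 (-0.19 ± 0.33, SE) turned to 0.033 with arrays centred on their medians, and Mx1 (0.077 ± 0.16, SE), whose 6 values lay between 3.86 and 4.41, turned to -0.013 in the values as deposited. Mx2, a GTPase like Mx1, lay between 5.61 and 5.97 (0.088 ± 0.16, SE).

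The replicate-1 pattern was not limited to those genes. The array titled replicate 1 was the highest in both populations in 7 of 15 interferon-induced genes (Ifit1, Ifit3, Oasl2, Rsad2, Usp18, Ifih1 and Ifitm3), 5 of 8 regulators and receptors (Irf7, Irf9, Stat2, Ifnar2 and Ifngr2) and 2 of 11 class I genes (B2m and Tapbp). Over all genes this held for 15.7%. In a list of 25 other interferon-stimulated genes it held for 12. In the Tie2-negative population replicate 1 lay above the mean of replicates 2 and 3 by 3.62 for Ifit1, 3.01 for Oasl2, 2.96 for Rsad2, 1.86 for Usp18 and 1.41 for Irf7. In the Tie2-positive population the same differences were 1.46, 1.75, 1.79, 1.45 and 1.30. Of the 14 members, the difference was smaller in the Tie2-negative population for Ifit3 (0.44 against 1.93), Ifitm3 (0.80 against 1.31), Tapbp (0.42 against 0.68), Stat2 (0.47 against 0.53) and Ifngr2 (0.41 against 0.67).

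Spread within a population differed between the groups of genes. The median SD between replicates of the 15 interferon-induced genes was 0.57 in the Tie2-negative and 0.85 in the Tie2-positive arrays, against 0.21 and 0.23 over all genes. For the 11 class I genes it was 0.40 in both populations. The excess of the 3' over the 5' control signal for Actb and Gapdh, which grows as RNA shortens, was also highest in replicate 1 of each population. It was 2.02, 1.86 and 1.85 in the Tie2-negative and 1.81, 1.56 and 1.44 in the Tie2-positive arrays. Every Tie2-negative array thus lay above every Tie2-positive one, and the part of RNA length in the changes between the populations was not tested. The erythroid marker median, over 5 measured of 6 markers of which 4 fell, was 12.35, 10.44 and 9.65 in the Tie2-negative and 5.42, 6.87 and 5.30 in the Tie2-positive arrays, so that it was highest in replicate 1 of the Tie2-negative population alone. The part of RNA length or of these cells in the pattern was not tested, and the labels do not say that equal numbers share a litter or a day.

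**Figure D5:**
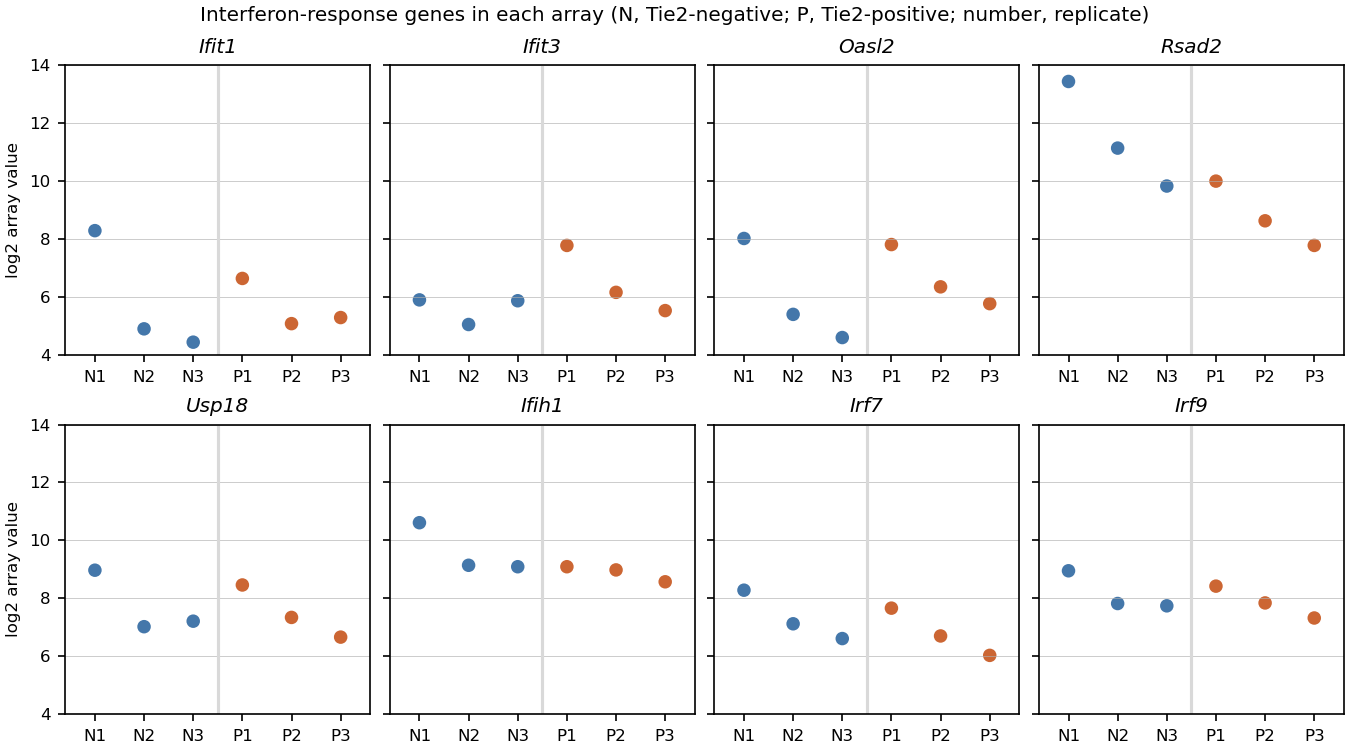
Log2 array values (vertical axis) of 8 interferon-response genes in each array (N, Tie2-negative; P, Tie2-positive; number, replicate; 1 point per array). The 8 genes were taken from the 14 members that were highest in replicate 1 of both populations. By this choice N1 is the highest N array and P1 the highest P array in every panel. The widest step is in Ifit1 (8.29 in N1 against 4.90 and 4.44 in N2 and N3).

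Among the regulators, the transcription factors and the receptor chains were described apart. Irf7, which drives type I interferon genes, read 8.28, 7.12 and 6.61 against 7.66, 6.70 and 6.03 (-0.54 ± 0.55, SE). Its change was -0.068 and -0.90 without Tie2-negative replicates 1 and 3 in turn, and -0.16 and -0.97 without Tie2-positive replicates 3 and 1 in turn. Irf9, a DNA-binding partner of Stat2, read 8.95, 7.82 and 7.74 against 8.42, 7.84 and 7.32 (-0.31 ± 0.42, SE), and turned to 0.076 without Tie2-negative replicate 1. Stat2 read 6.32, 6.17 and 5.52 against 6.29, 5.77 and 5.73 (-0.070 ± 0.27, SE). Irf1, a factor induced by interferon gamma, read 7.89, 8.46 and 8.12 against 9.08, 8.32 and 8.34 (0.42 ± 0.29, SE; 0.17 without Tie2-positive replicate 1). All 4 overlapped between the populations, and their median change was -0.19.

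The 4 receptor chains had changes above 0 with a median of 0.63, and 0 of 4 passed in limma (0 at an unadjusted p under 0.05). Ifnar1 read 7.24, 7.44 and 7.31 against 9.05, 7.71 and 7.83, without overlap (0.87 ± 0.38, SE; limma adjusted p = 0.183). Tie2-positive replicate 1 stood above the other 5 arrays, and without it the change was 0.44. Ifnar2 read 8.93, 7.91 and 8.05 against 9.64, 8.89 and 8.71 (0.78 ± 0.38, SE; 0.50 without Tie2-positive replicate 1), but its 3 probe sets ran from -0.39 to 0.78 and their mean gave 0.12. Ifngr1 read 9.30, 9.62 and 9.92 against 10.24, 9.82 and 10.20 (0.47 ± 0.24, SE). Ifngr2 read 7.0, 6.52 and 6.67 against 7.38, 6.75 and 6.67 (0.21 ± 0.26, SE). The 95% intervals held 0 and reached 1.76 for Ifnar1, 1.68 for Ifnar2, 1.05 for Ifngr1 and 0.82 for Ifngr2.

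The pathway around these genes was read from 6 further lists of 79 genes, of which 72 were measured. Of these, 2 rose and 1 fell (4.17%, against 7.39% of all genes). Fcgrt, the neonatal Fc receptor, a class I-like heavy chain that pairs with beta-2-microglobulin, read 5.98, 6.71 and 6.09 in the Tie2-negative and 11.94, 10.88 and 8.96 in the Tie2-positive arrays (4.33 ± 0.72, SE, n = 3 per population; limma adjusted p = 0.0213). It was the only one of 11 further class I loading and peptide genes to pass. Stat3, a factor of cytokine signalling, rose by 1.53 ± 0.27 (SE; adjusted p = 0.0269), 1 of 12 genes of JAK-STAT and IRF signalling. Eif2ak2, the kinase PKR that senses double-stranded RNA, read 6.86, 6.86 and 6.57 against 5.41, 6.02 and 5.72 and fell by 1.05 ± 0.21 (SE; adjusted p = 0.0335), 1 of 25 other interferon-stimulated genes. Of 10 nucleic acid sensing genes 0 passed in limma (3 at an unadjusted p under 0.05), and of 5 interferon ligand and further receptor genes 0 passed (1 at an unadjusted p under 0.05). The ligand genes gave low values in every array: Ifnb1 from 4.89 to 5.34, Ifna4 from 3.88 to 4.47 and Ifng from 3.35 to 3.97, below the median of all gene values of 6.55. The deposited values carry no detection calls, so whether these lay above background was not analysed. Where each gene's probe sets were averaged, Fcgrt alone passed. Without any 1 of the Tie2-negative arrays or Tie2-positive replicate 2, 0 of the 72 passed in limma (13 to 17 at an unadjusted p under 0.05). Without Tie2-positive replicate 1, 8 of the 72 passed (6 higher, 2 lower), in a fit that called 2148 of all 18193 genes. Without Tie2-positive replicate 3 Eif2ak2 did not pass.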

How the data were processed

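Per the labels' protocols, RNA was amplified in a double round, hybridised to Affymetrix Mouse 430 2.0 arrays and scanned with GCOS 1.1.1. The deposited table holds 1 value per probe set and array, taken as log2 from its range (2.56 to 14.78). The authors' summarisation and normalization are not given in the sources used here. Of 45101 probe sets 64 are controls, 34945 carry 1 gene symbol, 932 several and 9160 none here. Since 75th percentiles differed by up to 0.27 (7.26 to 7.33 in Tie2-negative, 7.45 to 7.53 in Tie2-positive arrays; limit 0.1), the values were quantile normalized, which took away a gap lying between the populations. No pair of arrays held identical values.

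The fit used limma 3.58.1 in R 4.3.3 (lmFit, eBayes with a mean trend) over all 6 arrays, without covariates, two-sided, Benjamini-Hochberg adjusted over 18193 genes, at 0.05. The procedure was tested on simulated data. The members, gene lists and alternatives were chosen with earlier results of these data known. Every measured member was named, and of the other pathway lists up to 3 called genes each with the largest change. Same-numbered arrays' deviations from their population means correlated at 0.14, 0.005 and 0.19, so the numbers were not taken to pair them. Alternatives tried were a block on the replicate number, 2 other scalings, dropping genes under the 40th percentile by mean, the choice of probe sets, eBayes settings, array weights and leaving out arrays. Arrays have no read depth, and their number limits the precision.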

Additional observations from a re-analysis of the deposited data

How the results depend on the processing

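Of the 34 genes, the same 2 (Ifitm2 and Ifitm3) passed in limma with the values as deposited, with arrays centred on their medians, with the filter on low values, over the mean of all probe sets, without probe sets of the suffix x_at or s_at, with every probe set tested, with no trend and with robust estimation. Blocking on the replicate number, limma called 0 of 34 members (11 at an unadjusted p under 0.05; Ifitm2 adjusted p = 0.0564, Ifitm3 0.0521), 0 of 15 interferon-induced genes, 0 of 72 other pathway genes and 0 of all genes. The block changed no other member's call. In deviations from the population means, each Tie2-negative array correlated best with the Tie2-positive array of its own number (0.14, 0.005 and 0.19). Among the Tie2-positive arrays replicates 1 and 3 did so too, while replicate 2 correlated best with Tie2-negative replicate 3 (0.055). With array weights the counts were 9 members (8 higher, 1 lower), 4 class I and 5 interferon-induced genes, 16 other pathway genes and 4639 of all genes. In the added fit lacking both arrays numbered 1, they were 5, 1, 4 and 6 (4 higher and 1 lower among the members), with 1741 of all genes. With Tie2-positive replicates 2 and 3 left out, added once the data had been seen as well, they were 7, 1, 5 and 15, with 1 regulator or receptor (Ifnar1) and 3637 of all genes; the lone Tie2-positive array is there assumed to vary like the other population. Leaving out 1 array in turn gave 0 to 5 members, 0 to 1 class I, 0 to 4 interferon-induced, 0 to 8 other pathway genes and 0 to 2148 of all genes. Other pathway genes numbered 5 with the filter on low values and 1 over the mean of all probe sets. The interferon-induced median change was 0.66 with that filter (12 genes), 0.72 with Tie2-positive replicates 2 and 3 left out, and 0.074 to 0.71 without 1 array in turn. It was 0.43 with array weights and also 0.43 with both arrays numbered 1 left out. The moves to 0.43 were smaller than the SD of the group's median level between arrays of a population, pooled over both populations. Those to 0.66, 0.71 and 0.72 were not. The class I median was 0.36 over the mean of all probe sets, 0.39 without probe sets of the suffix x_at or s_at and 0.36 in the fit lacking Tie2-positive replicates 2 and 3. The regulator and receptor median was 0.11 with array weights, 0.078 with both arrays numbered 1 left out and 0.64 in that last fit.

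Signs turned for members that did not pass. Tap1 was -0.047 over the mean of its probe sets. Ifit2 was 0.033 with arrays centred on their medians and 0.059 with array weights, Oas1a 0.47 with array weights, and Mx1 -0.013 as deposited and -0.072 with array weights. With both arrays numbered 1 left out, Ifit1 was 0.51, Oas1a 0.56 and Mx2 -0.047. With Tie2-positive replicates 2 and 3 left out, Tapbp was 0.32, Psmb9 -0.42, Nlrc5 -0.19, Ifit1 0.77, Mx1 -0.086, Usp18 0.72, Ifitm1 -1.62, Irf7 0.33, Irf9 0.25 and Stat2 0.29. Without 1 array in turn the ranges crossed 0 for Tap1 (-0.0064 to 0.34), Tapbp (-0.40 to 0.012), Ifit1 (-0.93 to 0.998), Ifit2 (-0.42 to 0.046), Oasl2 (-0.064 to 1.64), Oas1a (-0.61 to 0.25), Mx1 (-0.088 to 0.16), Usp18 (-0.73 to 0.37), Irf9 (-0.59 to 0.076), Stat2 (-0.31 to 0.089) and Ifngr2 (-0.018 to 0.34). The causes were not tested, and 3 arrays a population limit what could be called.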
